A study of Homo sapiens with 6 samples.

Results

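Sprouty, Spred and dual-specificity phosphatase (DUSP) genes encode feedback inhibitors of the ERK mitogen-activated protein kinase pathway. They were examined after exposure to recombinant human BMP9 in LX-2 cells, which derive from human hepatic stellate cells, the collagen-producing cells of the liver, and were immortalised for culture. The 10 genes SPRY1, SPRY2, SPRY4, SPRED1, SPRED2, SPRED3, DUSP1, DUSP4, DUSP5 and DUSP6 were taken with every array probe set that the platform annotation assigned to exactly 1 of them. This gave 27 of the 49293 probe sets that are not array controls, and 10 of 18132 genes. Cells grown in medium with 10% serum were kept without serum for 12 h. They then received BMP9 at 50 ng/ml for 24 h (BMP9, 3 arrays) or 0 ng/ml for the same time (control, 3 arrays). The samples of a group are labelled as biological replicates, with nothing on how their cultures were separated. The p-values therefore reflect only how far these samples of a single cell line vary, which may be technical.

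ERK is switched on when a growth factor receptor activates RAS, which starts the kinase chain RAF, MEK and ERK. ERK then induces genes whose products act back on the chain, so the level of these transcripts is widely used as a readout of ERK output. Sprouty proteins act between the receptor and RAF, Spred proteins bring the RAS inhibitor neurofibromin to the membrane, and the DUSPs studied here remove the activating phosphates from ERK or related kinases. In stellate cells the pathway is best known downstream of platelet-derived growth factor. BMP9, the product of GDF2, signals through other receptors and SMAD1/5/9 proteins.

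No member passed the test for a difference between BMP9 and control. Of the 27 probe sets 0 had a limma adjusted p under 0.05, against 0.41% of all probe sets, and of the 10 genes, each represented by its brightest probe set, 0 passed, against 0.684% of all genes. At an unadjusted p under 0.05 there were 5 probe sets, against 11.4% of all, and 2 genes, against 12.9%. The median difference (BMP9 minus control, log2 scale) was 0.040 over the 27 probe sets and 0.0078 over all probe sets. Of the 27 differences 15 were positive, against 52.6% of all probe sets. Taken without sign, the median difference was 0.11 over the 27 probe sets and 0.084 over all probe sets. The lowest was -0.40 for a DUSP1 probe set and the highest 0.46 for a DUSP6 probe set. In 7 of the 27 probe sets the 3 BMP9 arrays did not overlap the 3 control arrays, against 17.3% of all probe sets. The BMP9 arrays were above in 5 of these, against 9.09% of all probe sets, and below in 2. Of the 10 genes 1, SPRY2, had groups without overlap, against 18.8% of all genes. In such bulk samples, a lower share of cells with a transcript and less of it per cell cannot be told apart.

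The same arrays did carry the response to BMP9. SMAD6, an inhibitory SMAD and a direct target of BMP receptors, had log2 values of 9.07, 8.92 and 8.96 on the BMP9 arrays, against 5.80, 6.14 and 5.98 on the control arrays (difference 3.01, SE 0.097, limma adjusted p = 3.97e-07). Its size depended on the probe set: averaged over its 3 probe sets SMAD6 differed by 1.99 (limma adjusted p = 5.66e-06), and without probe sets named _x_at, _s_at or _a_at by 0.24, which did not pass (limma adjusted p = 0.500). ID3 rose by 1.63 (limma adjusted p = 8.65e-05) and ID2 by 1.21 (limma adjusted p = 0.0492); both encode inhibitors of helix-loop-helix transcription factors. ID2 missed the threshold without BMP9 replicate 1 (limma adjusted p = 0.141), 2 (0.155) or 3 (0.182), without control replicate 2 (0.0812) and averaged over its probe sets (0.0780). SMAD7 (0.21) and ID1 (0.14) did not pass in their brightest probe sets. Both passed with hybridisation and with poly-A scaling, but so did 4915 and 16912 of all 18132 genes. Averaged over its 3 probe sets ID1 differed by 1.22 and passed (limma adjusted p = 0.00205), while SMAD7 differed by 0.38 (limma adjusted p = 0.137). Of 8 mesenchymal and stellate cell markers 0 passed, 1 of them at an unadjusted p under 0.05. Among them COL1A1, a fibrillar collagen gene, read 9.71 to 9.90 with BMP9 and 9.61 to 9.91 in control. VIM, the vimentin gene, had the smallest p of the 8 and read 11.21 to 11.31 with BMP9, against 11.51 to 11.69 in control, without overlap (difference -0.37, limma adjusted p = 0.0786), a difference smaller than the upward shift that poly-A scaling adds. Of 17 markers of hepatocytes, endothelial cells, macrophages, leukocytes and cholangiocytes, 0 passed, 3 of them at an unadjusted p under 0.05. Values of different probe sets are not comparable as levels, and no detection calls were used here. The array's own background probe sets ran from 1.58 to 1.74 at 3 G or C bases up to 9.76 to 10.1 at 25, so a value alone does not show that a probe set lies above background.

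**Figure D1:**
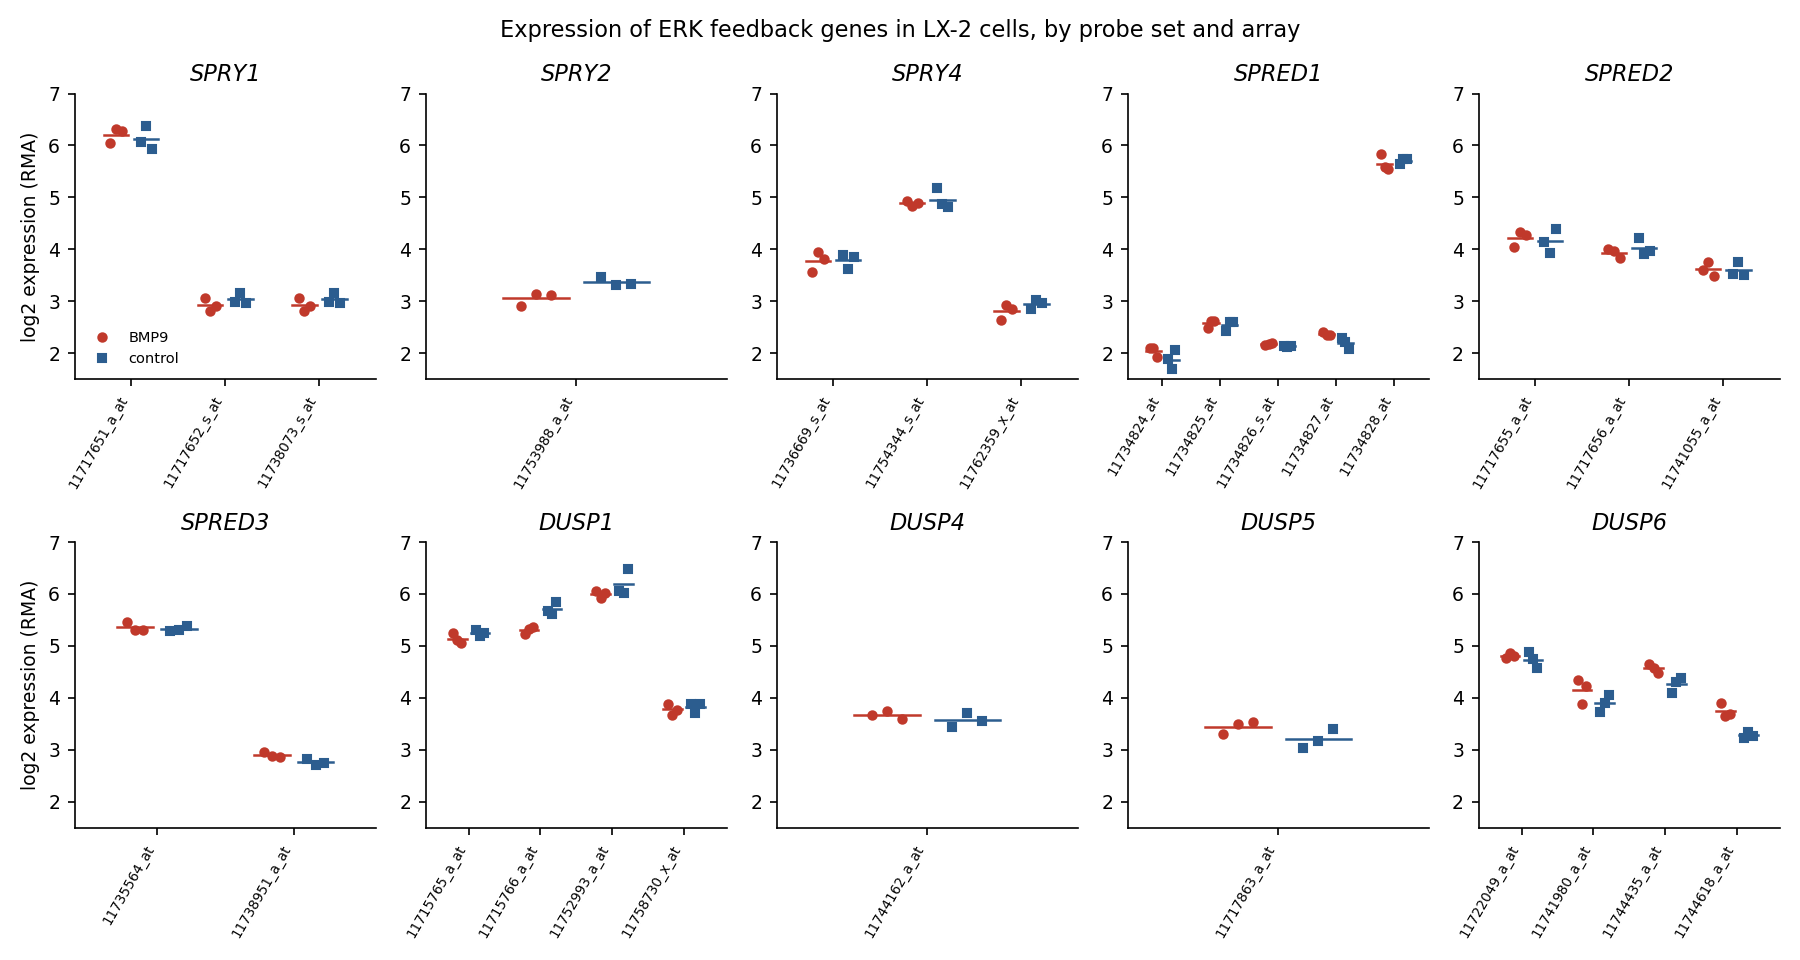
Log2 expression of the 27 probe sets of the 10 genes on each array, with BMP9 arrays as red circles left of control arrays as blue squares and the mean of each group as a line (n = 3 arrays per group). Most pairs of groups overlap, and the DUSP6 probe set 11744618_a_at has all BMP9 arrays (3.65 to 3.90) above all control arrays (3.22 to 3.35).

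The Sprouty genes encode membrane-associated inhibitors of receptor tyrosine kinase signalling. SPRY2, an inhibitor induced by many growth factors, is represented by a single probe set, 11753988_a_at. It read 2.92, 3.15 and 3.13 with BMP9, against 3.47, 3.32 and 3.35 in control. All BMP9 arrays lay below all control arrays, and the lowest was BMP9 replicate 1. The difference was -0.31 (SE 0.091, 95% interval -0.51 to -0.11), or 1.24-fold lower, which missed the threshold (limma adjusted p = 0.229 over the whole array). It turned positive (0.22, limma adjusted p = 0.195 over all genes) when arrays were scaled to their poly-A controls.

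SPRY1, whose product restrains receptor signalling in many tissues, read 6.04, 6.32 and 6.27 with BMP9, against 6.06, 6.37 and 5.94 in control in its brightest probe set. The groups overlapped, and the difference was 0.087 (95% interval -0.18 to 0.35, limma adjusted p = 0.828). The other SPRY1 probe sets, 11717652_s_at and 11738073_s_at, held identical values on every array and count as 1 measurement. They read 2.82 to 3.07 with BMP9 and 2.98 to 3.17 in control, a difference of -0.11 that was positive with both control scalings. SPRY4, another member of the family, had 3 probe sets, none with separate groups. Its brightest read 4.93, 4.84 and 4.90 with BMP9, against 5.18, 4.87 and 4.82 in control (difference -0.063, 95% interval -0.29 to 0.16, limma adjusted p = 0.856). The other SPRY4 differences were -0.022 and -0.14, and all 3 were positive with either control scaling.

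Spred proteins carry an N-terminal EVH1 domain and a C-terminal Sprouty-related domain. SPRED1, which binds neurofibromin, had 5 probe sets, of which 1 was bright. That probe set, 11734828_at, read 5.83, 5.58 and 5.54 with BMP9, against 5.64, 5.73 and 5.74 in control, with overlapping groups (difference -0.052, 95% interval -0.26 to 0.16, limma adjusted p = 0.873; positive with poly-A or hybridisation scaling). The other SPRED1 probe sets stood between 1.69 and 2.63 on all arrays, a range that the array's background probe sets also span, and differed by 0.040 to 0.18. In 11734827_at the BMP9 arrays, at 2.36 to 2.41, all lay above the control arrays, at 2.09 to 2.29 (limma adjusted p = 0.445). In 11734826_s_at they did so by a difference of 0.042 alone (limma adjusted p = 0.869).

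SPRED2, a broadly expressed relative, had 3 overlapping probe sets with differences of 0.061, -0.099 and 0.016, all positive with either control scaling. The brightest of them read 4.04, 4.34 and 4.27 with BMP9, against 4.15, 3.94 and 4.39 in control (95% interval of the difference -0.20 to 0.33). SPRED3, the third Spred gene, read 5.47, 5.32 and 5.31 with BMP9, against 5.29, 5.31 and 5.39 in control in its brightest probe set. Its groups overlapped there (difference 0.040, 95% interval -0.14 to 0.22, limma adjusted p = 0.890). In the dimmer SPRED3 probe set BMP9 lay above control, at 2.87 to 2.96 against 2.70 to 2.83 (difference 0.14, limma adjusted p = 0.525).

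The DUSP genes held the largest differences, and in opposite directions on the deposited scale. DUSP6 encodes a cytoplasmic phosphatase that is selective for ERK, and 4 probe sets measured it. In 11744618_a_at it read 3.90, 3.65 and 3.70 with BMP9, against 3.22, 3.35 and 3.27 in control. The groups stood clear of each other. The difference of 0.46 (SE 0.089, 95% interval 0.27 to 0.66), or 1.38-fold, missed the threshold (limma adjusted p = 0.0619) and ranked 247 by p among the 49293 probe sets. In 11744435_a_at the values were 4.65, 4.57 and 4.49 with BMP9, against 4.10, 4.31 and 4.37 in control, again without overlap (difference 0.31, SE 0.093, limma adjusted p = 0.244).

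The remaining DUSP6 probe sets overlapped between the groups. In 11741980_a_at the values were 4.35, 3.89 and 4.23 with BMP9, against 3.74, 3.91 and 4.06 in control (difference 0.25, limma adjusted p = 0.481). The brightest, 11722049_a_at, read 4.78, 4.86 and 4.81 with BMP9, against 4.88, 4.75 and 4.57 in control, a difference of 0.084 (95% interval -0.12 to 0.29) that fell to 0.0025 without control replicate 3. All 4 DUSP6 differences were thus positive on the deposited scale. Both control scalings add an upward shift to every probe set, so positive differences had to stay positive there. Averaged over the 4 probe sets, DUSP6 differed by 0.28 and did not pass over all genes (limma adjusted p = 0.134).

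DUSP1 encodes a nuclear phosphatase of ERK, p38 and JNK and is an immediate early gene. In 11715766_a_at it read 5.22, 5.32 and 5.37 with BMP9, against 5.66, 5.61 and 5.84 in control. Every BMP9 array was below every control array. The difference was -0.40 (SE 0.089, 95% interval -0.60 to -0.21), or 1.32-fold lower, and did not pass (limma adjusted p = 0.110). It passed where probe sets with a mean log2 value under 5 were left out (limma adjusted p = 0.0169), as did 449 of the 11438 tested. It also passed with an intensity trend and a robust prior (limma adjusted p = 0.0472), as did 429 of 49293 probe sets. With poly-A scaling the difference was 0.13.

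The other 3 DUSP1 probe sets overlapped between groups. The brightest, 11752993_a_at, read 6.06, 5.91 and 6.02 with BMP9, against 6.05, 6.01 and 6.48 in control. Control replicate 3 stood above the rest, and leaving it out moved the difference from -0.19 to -0.035. The differences of the last probe sets were -0.11 and -0.044. All 4 DUSP1 differences were negative on the deposited scale. With hybridisation scaling 1 of them stayed negative, and with poly-A scaling all 4 were positive.

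DUSP5, a nuclear phosphatase specific for ERK, had 1 probe set, which read 3.31, 3.50 and 3.53 with BMP9, against 3.04, 3.17 and 3.40 in control. The groups overlapped through control replicate 3, and the difference of 0.24 (95% interval 0.010 to 0.48) did not pass (limma adjusted p = 0.418). DUSP4, a nuclear relative of DUSP1, read 3.67, 3.75 and 3.59 with BMP9, against 3.45, 3.71 and 3.56 in control, also in 1 probe set. Its groups overlapped too (difference 0.096, 95% interval -0.11 to 0.30, limma adjusted p = 0.737).

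**Figure D2:**
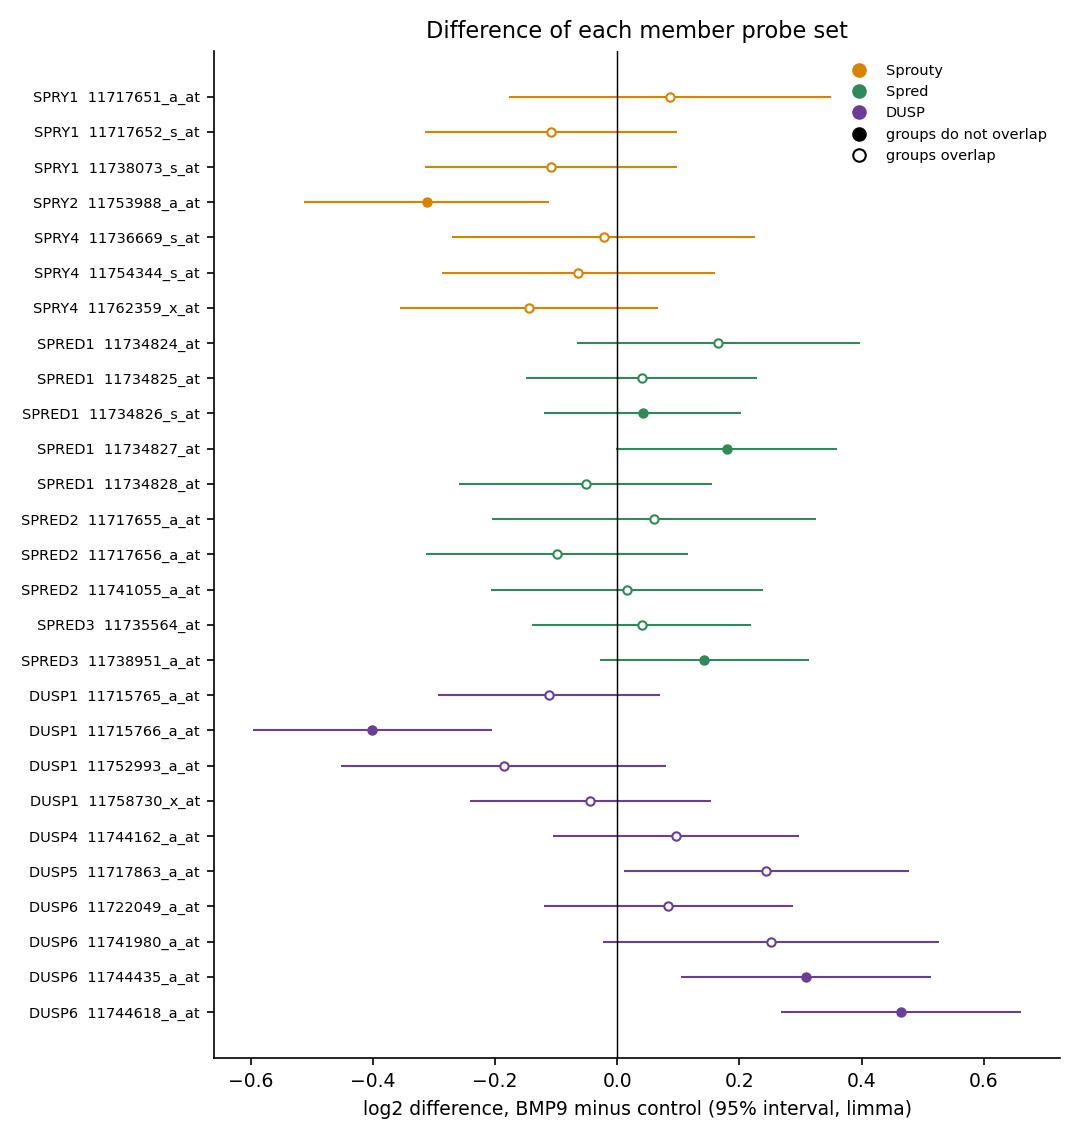
Difference between BMP9 and control (BMP9 minus control, log2 scale) of each of the 27 probe sets, with limma's 95% interval as a bar, coloured by family. Filled points mark the 7 probe sets whose groups do not overlap. The 4 DUSP6 points lie right of 0 and the 4 DUSP1 points left of it on the deposited scale; with poly-A scaling the DUSP1 differences are positive too.

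The promoters of DUSP6, DUSP1 and SPRY2, the genes of the 3 smallest probe set p-values when each gene is counted once, are shown because these genes held the probe sets nearest to the threshold. DUSP5 had no window listed, and DUSP4 was left out of this step. For the other 8 of the 10 genes, windows of 250 bases before the most upstream start listed were taken (RefSeq, build GRCh38.p14). They are written from 5′ to 3′ on the gene's strand, with capitals for any match on either strand to TGACG (the core of the cyclic AMP response element), CCGGAA (an ETS core, the family of factors that ERK phosphorylates) or GGCGCC (a GC-rich SMAD motif).
DUSP6 (chr12:89352502-89352751, minus strand): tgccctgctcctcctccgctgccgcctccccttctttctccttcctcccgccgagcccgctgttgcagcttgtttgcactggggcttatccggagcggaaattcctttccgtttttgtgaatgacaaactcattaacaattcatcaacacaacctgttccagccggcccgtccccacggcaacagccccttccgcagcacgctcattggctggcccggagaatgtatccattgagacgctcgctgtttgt
DUSP1 (chr5:172771196-172771445, minus strand): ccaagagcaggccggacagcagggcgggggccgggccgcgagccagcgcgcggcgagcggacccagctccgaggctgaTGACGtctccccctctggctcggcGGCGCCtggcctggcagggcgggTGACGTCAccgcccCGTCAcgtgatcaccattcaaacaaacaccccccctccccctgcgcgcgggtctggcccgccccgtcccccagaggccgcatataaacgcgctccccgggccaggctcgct
SPRY2 (chr13:80341127-80341376, minus strand): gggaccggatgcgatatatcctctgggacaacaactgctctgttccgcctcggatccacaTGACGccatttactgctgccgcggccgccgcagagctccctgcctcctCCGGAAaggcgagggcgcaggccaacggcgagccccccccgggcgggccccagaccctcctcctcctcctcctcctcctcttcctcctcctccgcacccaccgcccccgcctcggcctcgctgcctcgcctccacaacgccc

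In the DUSP1 window, TGACG or its reverse complement occurred 4 times, a pair of them overlapping, and GGCGCC once. The SPRY2 window held TGACG once and CCGGAA once, and the DUSP6 window held none of the 3 motifs. Over the 8 windows, TGACG was present in 3, CCGGAA in 1 and GGCGCC in 3. Of all 35116 listed windows of the same length, not limited to a gene's most upstream start, 21.2% held TGACG, 14.5% CCGGAA and 16.4% GGCGCC. A match of such short letters describes the sequence and is no evidence of a bound site.

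The rest of the pathway was followed from receptor to target in 5 lists of genes, each gene represented by its brightest probe set. Over all genes 0.684% passed and 12.9% had an unadjusted p under 0.05. Of 8 growth factor receptors upstream of ERK, 0 rose and 1 fell, and the median difference was -0.025, beside 0.014 over all genes. PDGFRA, which encodes the alpha receptor of platelet-derived growth factor, read 4.47, 4.81 and 4.64 with BMP9, against 5.38, 6.02 and 5.62 in control. The groups did not overlap, and the fall of 1.03 (SE 0.15, limma adjusted p = 0.0114), or 2.05-fold, was the largest along the pathway. It depended on the probe set: averaged over its 4 probe sets PDGFRA differed by -0.15 (limma adjusted p = 0.517). It also missed the threshold without BMP9 replicate 1 (limma adjusted p = 0.0603) or 3 (limma adjusted p = 0.0582). FGFR1, a fibroblast growth factor receptor, had the next smallest p (-0.21, limma adjusted p = 0.490, positive with poly-A scaling). Averaged over its 7 probe sets FGFR1 differed by -0.040, and without those named _x_at, _s_at or _a_at by 0.22.

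Of 20 adaptors and kinases of the cascade 14 were measured, and 0 passed, with 0 at an unadjusted p under 0.05 and a median difference of 0.0091. RPS6KA3, a kinase activated by ERK, had the smallest p (-0.23, limma adjusted p = 0.403), followed by the RAS exchange factor gene SOS1 (-0.13, limma adjusted p = 0.550). Both turned positive with poly-A scaling, and SOS1 also with hybridisation scaling. RPS6KA3 differed by -0.11 averaged over its 2 probe sets and by 0.0052 without names in _x_at, _s_at or _a_at. Of 6 other MAP kinase phosphatases 0 passed, 1 of them at an unadjusted p under 0.05, and the median was -0.041. DUSP8, which acts mainly on JNK and p38, read 6.80, 7.04 and 6.72 with BMP9, against 7.19, 7.09 and 7.14 in control. Its groups did not overlap (difference -0.29, limma adjusted p = 0.228, positive with poly-A scaling), and averaged over its 2 probe sets it differed by -0.11. DUSP7, a close relative of DUSP6, differed by 0.16 (limma adjusted p = 0.439).

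Among 12 measured of 14 other brakes on receptor, RAS and ERK signalling, 0 rose and 1 fell (median -0.12). Of their differences 4 were positive and 8 negative, against 54.7% positive over all genes. ERRFI1, which encodes an inhibitor of the EGF receptor family and is itself induced by ERK signalling, read 3.71, 3.77 and 3.75 with BMP9, against 4.50, 4.37 and 4.29 in control. The values within each group lay close together, and the groups stood well apart. ERRFI1 fell by 0.64 (SE 0.079), or 1.56-fold, in its only probe set (limma adjusted p = 0.00485), and passed whichever array was left out (limma adjusted p 0.0116 to 0.0298). With poly-A scaling the difference was -0.11 and did not pass. NF1, the neurofibromin gene and so the partner of the Spred proteins, differed by -0.28 in its brightest of 21 probe sets (limma adjusted p = 0.179) and by 0.020 averaged over them. Without names in _x_at, _s_at or _a_at NF1 differed by 0.21.

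Of 14 transcription targets of ERK 0 passed, 2 of them at an unadjusted p under 0.05, with a median difference of -0.051. EPHA4, an ephrin receptor gene, read 5.08 to 5.22 with BMP9, against 4.79 to 5.06 in control (difference 0.22, limma adjusted p = 0.341). EGR1, an immediate early transcription factor gene, read 8.73, 8.84 and 8.80 with BMP9, against 9.06, 8.95 and 8.89 in control (difference -0.18, limma adjusted p = 0.376). Neither pair of groups overlapped. The EGR1 difference turned positive with both control scalings and when its probe sets were averaged.

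**Figure D3:**
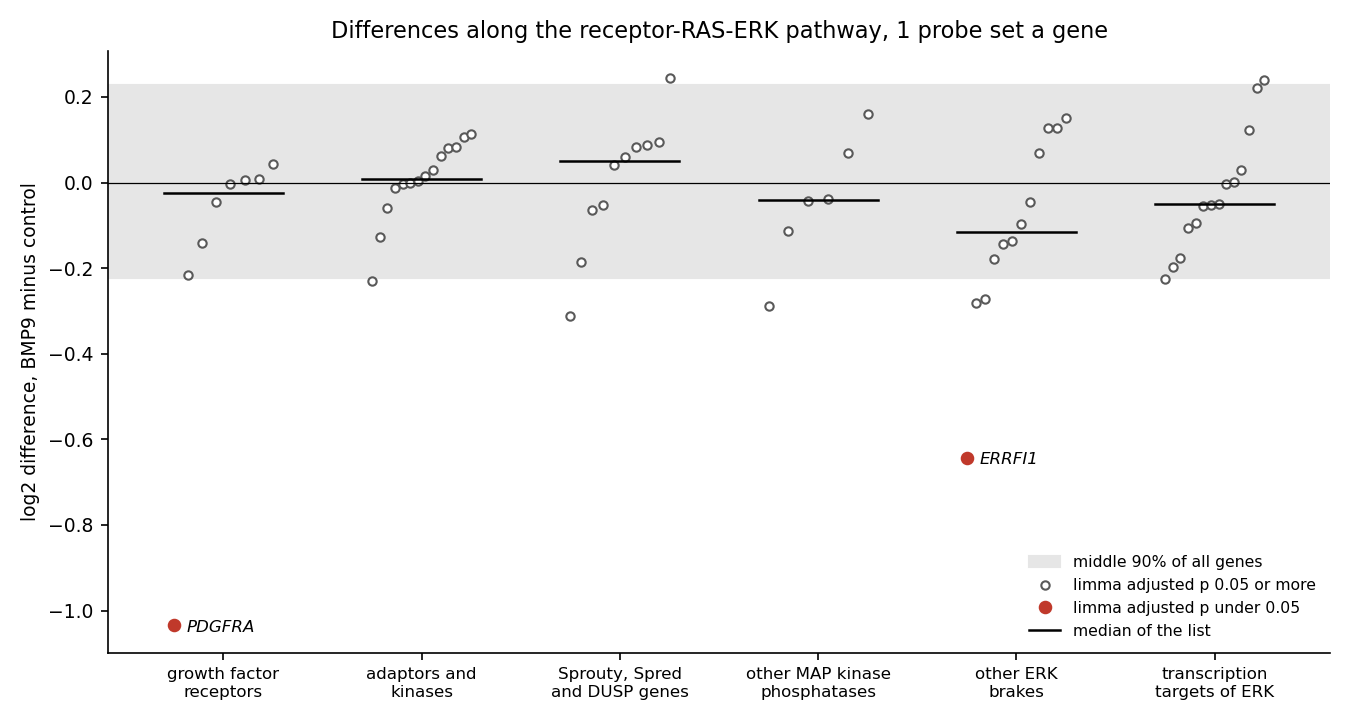
Difference between BMP9 and control (BMP9 minus control, log2 scale, deposited values) for every measured gene of 6 groups along the pathway, with the median of each group as a line and the range between the 5% and 95% quantiles of all genes (-0.22 to 0.23) shaded. Red points, PDGFRA and ERRFI1, have a limma adjusted p under 0.05, and the 10 Sprouty, Spred and DUSP genes lie between -0.31 and 0.24.

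SPRY2 had the smallest p among the 10 genes (limma adjusted p = 0.180 over all genes), and its pattern over the 6 arrays was set against that of 6744 genes with a mean log2 value of at least 5. After each gene's mean was subtracted, the closest were PRKAG2, a regulatory subunit gene of AMP-activated protein kinase, GOLPH3, a Golgi protein gene, and KLHL33, a kelch-like gene. Their root mean square distances from SPRY2 were 0.037, 0.038 and 0.049 on the log2 scale. PRKAG2 differed by -0.25 (limma adjusted p = 0.286), GOLPH3 by -0.29 (limma adjusted p = 0.197) and KLHL33 by -0.33 (limma adjusted p = 0.117), and all were positive with poly-A scaling. KLHL33 passed where genes with a mean log2 value under 5 were left out of the fit (limma adjusted p = 0.0264), as did 267 of the 6744 tested. PRKAG2, GOLPH3 and KLHL33 were chosen for values close to those of SPRY2, so their shared direction is no further result.

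The array's spiked controls moved with the groups. The mean of the 24 poly-A control probe sets was 5.39 to 5.83 on the BMP9 arrays and 6.09 to 6.22 on the control arrays, and that of the 18 hybridisation controls 9.87 to 10.04 with BMP9 and 10.12 to 10.20 in control. Their part in the results was not tested. Over all probe sets 66 were higher and 136 lower on the deposited scale, 10445 and 143 with hybridisation scaling, and 45775 and 30 with poly-A scaling. The median of all probe sets moved to 0.22 and 0.54 under these scalings and that of the 27 member probe sets to 0.25 and 0.57. Each scaling adds the same shift to every probe set, so it leaves their order as it was.

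**Figure D4:**
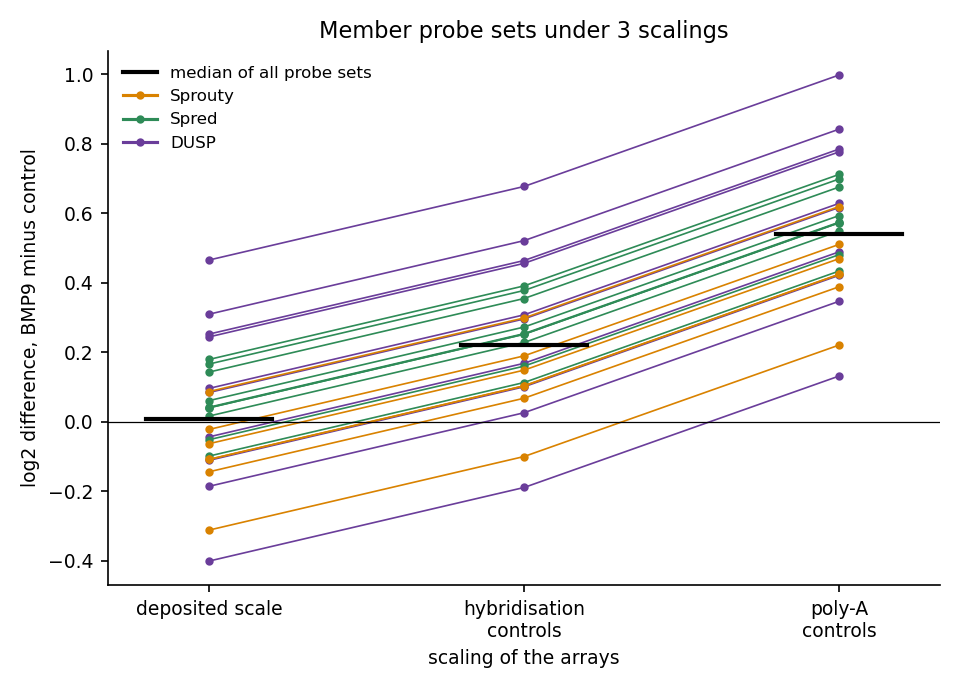
Difference of each of the 27 probe sets (BMP9 minus control, log2 scale) on the deposited scale and with arrays scaled to the hybridisation or the poly-A controls, 1 line per probe set. Black bars give the median of all probe sets (0.0078, 0.22 and 0.54); 15, 25 and 27 of the 27 differences are above 0.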

How the data were processed

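The authors deposited 1 log2 value for each probe set and array. The submitters' processing notes name RMA, a method of background correction, quantile normalisation and summary over probes. The program that ran it is not given in the sources used here. Base 2 was taken from the range of the values. RMA removes most of any change shared by all transcripts. The number of arrays limits the precision. Each array was tied to its group through its title.

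The contrast of BMP9 against control was fitted with lmFit and eBayes (limma 3.58.1, R 4.3.3, no covariate) over all 49293 probe sets and, with the probe set of the highest mean for each gene, over 18132 genes, with Benjamini-Hochberg adjustment and a threshold of 0.05. Intervals are limma's at 95%. The script was tested on simulated data. Gene names came from the platform's annotation, and 8 list members were not analysed here. The text names every member, the BMP9 response check genes, the list genes that passed and the 2 of smallest p in each list, and the 3 genes most like SPRY2 by the smallest root mean square distance; COL1A1 and VIM were named after their values were seen. The members and lists were chosen with earlier results of these data known. Alternatives covered the replicate block, normalisation, control scaling, a minimum mean of 5 and the variance model. Others were filters on probe set names, averaged probe sets and each array left out.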

Additional observations from a re-analysis of the deposited data

How the results depend on the processing

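The count of member probe sets past the threshold (0 of 27) became 7 with hybridisation scaling and 25 with poly-A scaling. Of all 49293 probe sets 10588 and 45805 passed there. It became 1 with an intensity trend, where 429 of all 49293 probe sets passed. With a minimum mean of 5 it was 1 of 6 tested, where 449 of all 11438 tested passed. The count of member probe sets stayed 0 with the replicate block, both other normalisations and whichever array was left out. It was also 0 under 2 filters on probe set names. Leaving out _x_at and _s_at kept 20 member probe sets, and leaving out _a_at as well kept 5. The count of member genes (0 of 10) became 1 and 9 under the control scalings, beside 4915 and 16912 of all 18132 genes. It stayed 0 under the others run, with 4 member genes tested at a minimum mean of 5. Without _x_at, _s_at and _a_at names 2 were tested. The count of pathway genes (2) became 11 and 46 under these scalings. It became 1 with a minimum mean of 5, with averaged probe sets, or without shared-probe probe sets by either definition. The definition that leaves out only names in _x_at or _s_at was chosen after seeing the data. With the minimum mean and with both definitions ERRFI1 was not tested, and PDGFRA still passed. The only ERRFI1 probe set has a mean under 5 and a name in _s_at. With averaged probe sets ERRFI1 passed and PDGFRA did not. Over single arrays left out the count of pathway genes was 1 to 2. Of the 5 BMP9 response genes 3 passed, and 5 with either control scaling. Without any of _x_at, _s_at and _a_at 0 passed, but of the 5 only SMAD6 kept a probe set there. Poly-A scaling turned these negative differences into calls above 0: SPRY1 0.42 (both probe sets with identical values), SPRY4 0.51, 0.47 and 0.39, SPRED1 0.48, SPRED2 0.43, DUSP1 0.42, 0.35 and 0.49, SOS1 0.40 and EGR1 0.35. It adds a shift to every probe set. Of 771 single values recomputed, 52 changed sign with neither value past the threshold.

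Of all 18132 genes 124 passed, 285 with an intensity trend and 54 to 78 with an array left out. The control scalings gave 4915 and 16912. With a minimum mean of 5, 267 of 6744 genes passed, and without _x_at, _s_at and _a_at names 17 of 8354. Of all 49293 probe sets 202 passed, 429 with an intensity trend and 88 to 137 with an array left out. The control scalings gave 10588 and 45805. With the minimum mean 449 of 11438 probe sets passed, and with the filter on names 17 of 11889. The replicate number as a block left 160 probe sets and 94 genes, with 0 member probe sets (smallest limma adjusted p = 0.134). The main fits did not treat the numbers as pairs. Deviations of same-numbered arrays correlated at 0.0038, 0.046 and -0.021, and those of differently numbered arrays at -0.073 to 0.063. Without detection calls, a missed threshold in a dim probe set does not show that its transcript did not change.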
